A study of Homo sapiens with 6 samples.

Results

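The genes described here are 10 members of the TNF receptor family and of death receptor signalling, chosen by symbol from the 60670 genes of the deposited table: the receptors TNFRSF10A, TNFRSF10B, TNFRSF10D, FAS, TNFRSF1A, TNFRSF12A, TNFRSF14 and TNFRSF21, the ligand TNFSF10 and the inhibitor CFLAR. Each symbol stood on a single row. Ishikawa cells, a human endometrial adenocarcinoma line, were treated with 5 µM penfluridol, an antipsychotic drug, or with DMSO, the solvent, and each treatment gave 3 messenger RNA libraries. The labels leave out how long the treatment lasted. Expression is given as TPM, transcript abundance per unit of transcript length, scaled to a fixed total in each library. All 10 genes were among the 12201 genes that averaged at least 1 TPM over the 6 libraries and were tested. TNFRSF14 reached that mean through the penfluridol libraries alone and FAS through the DMSO libraries alone.

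TNF receptors are cell surface proteins that bind trimeric ligands. Those with a death domain in their cytoplasmic tail can recruit the adaptors FADD or TRADD. FADD in turn gathers caspase-8 into a death-inducing complex, in which CFLAR, a caspase-8 relative without protease activity, can block cell death. Receptors without a death domain signal through TRAF adaptors to NF-kB and stress kinases, and decoy receptors bind ligand without passing on a death signal. In epithelial tumour cells this system is known as the route by which the ligand TRAIL, the product of TNFSF10, kills cells through TNFRSF10A and TNFRSF10B, also called DR4 and DR5.

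The libraries carried the identity of an epithelial endometrial line. All 6 epithelial markers and 4 of 5 endometrial lineage markers were at 1 TPM or more in all 6 libraries. The summed epithelial markers ranged from 2749 to 3173 TPM with penfluridol and from 4026 to 5088 TPM in DMSO. Libraries differed in how expression varied with the GC content of transcripts. The log2 deviation of the most GC-rich decile of genes, less that of the most GC-poor decile, was 0.76, 0.58 and 0.29 in penfluridol 1, 2 and 3, against -0.61, -1.26 and 0.25 in DMSO 1, 2 and 3. DMSO 3 therefore stood apart from the other DMSO libraries and close to penfluridol 3, and values without it, and after a correction for GC content and transcript length, are given beside the genes whose calls they alter. TPM keeps no read counts, so the depth behind a value is unknown and values carry no counting interval. The labels do not say whether the libraries of a treatment came from separate cultures, so a p-value here reflects only how these libraries varied, and that variation may be technical.

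Of the 10 genes, 4 rose with penfluridol and none fell at an adjusted p under 0.05 (limma, Benjamini-Hochberg over all genes tested). Those that rose were TNFRSF14, TNFRSF12A, TNFRSF10B and TNFRSF1A, all of them receptors. Among all genes tested 9.75% were called higher and 3.48% lower. At an unadjusted p under 0.05, 5 of the 10 were higher and 0 lower, where all genes gave 18.9% higher and 14.2% lower. In 5 of the 10 the penfluridol values all lay above the DMSO values, as in 23.3% of the genes tested, and in 0 did they all lie below, as in 13.6%. The median log2 fold change was 0.40 over the 10 genes and -0.04 over all genes tested. After correction for GC content and length 2 of the 10, TNFRSF14 and TNFRSF12A, were higher and 0 lower, where 5.75% of all genes were higher and 7.07% lower. With no filter on low TPM 2 of the 10 were higher and 0 lower, where 3.02% of all genes were higher and 0.729% lower.

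**Figure D1:**
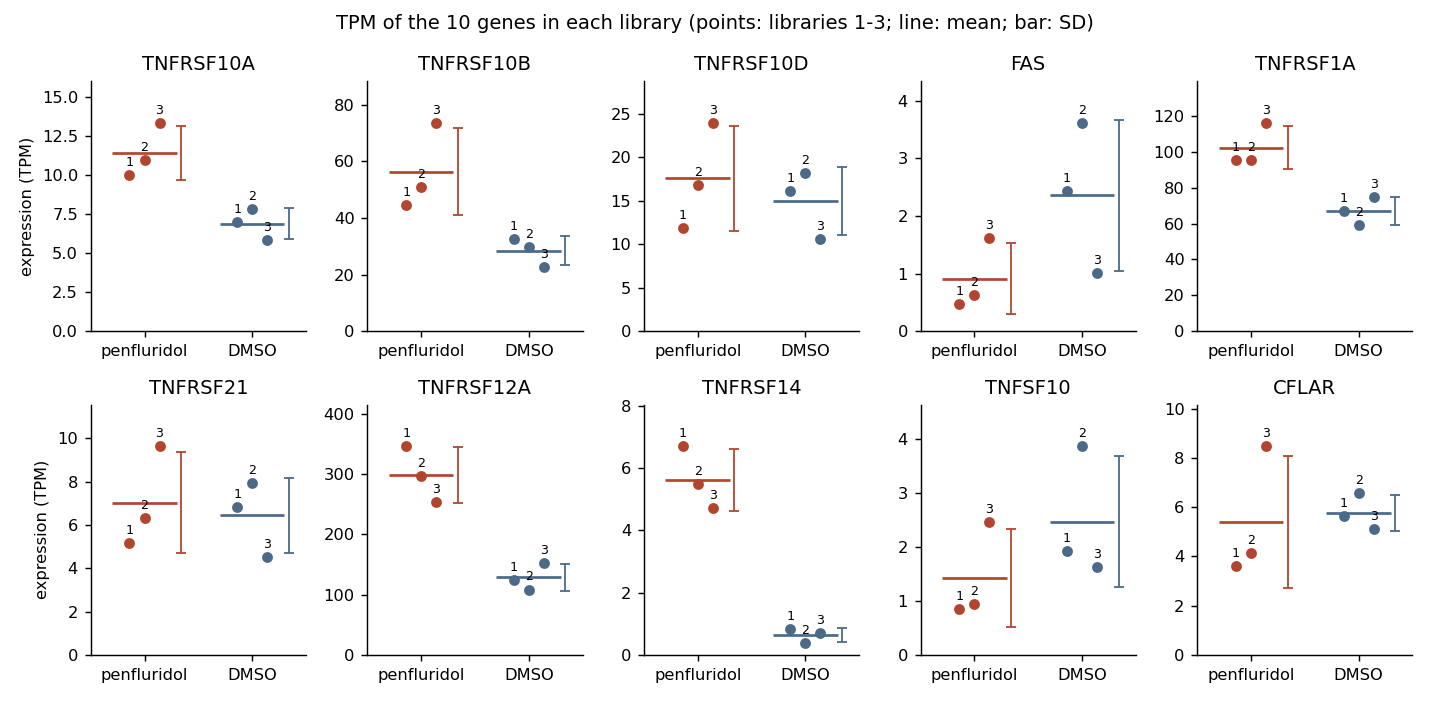
TPM of the 10 genes in penfluridol (left) and DMSO (right) libraries, with points numbered by library, a line at the mean and a bar of 1 SD; each panel has its own axis from 0. The penfluridol and DMSO values do not overlap for TNFRSF10A, TNFRSF10B, TNFRSF1A, TNFRSF12A and TNFRSF14, and overlap for the other 5 genes.

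The levels of the 10 genes spanned a wide range in both treatments. TNFRSF12A was the most abundant in each, followed by TNFRSF1A, TNFRSF10B and TNFRSF10D in that order. With penfluridol the ranges of neighbours in the order overlapped between TNFRSF10D and TNFRSF10A, between TNFRSF21, TNFRSF14 and CFLAR in turn, and between TNFSF10 and FAS. In DMSO they overlapped between TNFRSF10A, TNFRSF21 and CFLAR in turn and between TNFSF10 and FAS, and TNFRSF14 was the least abundant. TNFRSF14 was thus at rank 7 of 10 with penfluridol and at rank 10 in DMSO.

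Of the TRAIL receptors with a death domain, TNFRSF10B rose. It was at 44.5, 50.9 and 73.6 TPM in penfluridol 1, 2 and 3, against 32.6, 29.8 and 22.8 TPM in DMSO 1, 2 and 3. All penfluridol values lay above all DMSO values, with the widest gap between the libraries numbered 3. The means were 56.3 ± 15.3 TPM with penfluridol and 28.4 ± 5.07 TPM in DMSO (SD, n = 3 each), a log2 fold change of 0.95 on the log2(TPM + 1) scale that all fold changes here use (SE 0.22, adjusted p = 0.0348). The call was lost after correction for GC content and length (log2 fold change 0.75, adjusted p = 0.0874) and with no filter on low TPM (adjusted p = 0.0857). Among the 6 fits with 1 library left out, only that without DMSO 3 kept the call (adjusted p = 0.0381), and the others had adjusted p-values up to 0.122.

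TNFRSF10A, the other TRAIL receptor with a death domain, was at 9.98, 10.95 and 13.3 TPM with penfluridol and at 7.01, 7.82 and 5.81 TPM in DMSO. The groups did not overlap, but the difference did not pass the test (log2 fold change 0.66, SE 0.19, adjusted p = 0.0632). It passed with libraries scaled by the median of ratios (adjusted p = 0.0207) and with a stricter filter that asked for 5 TPM in 3 libraries (adjusted p = 0.0450). It did not pass after correction for GC content and length (log2 fold change 0.45, adjusted p = 0.204), with no filter on low TPM (adjusted p = 0.111) or in any of the 6 fits with 1 library left out (adjusted p = 0.0725 to 0.202).

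TNFRSF10D, a decoy receptor for TRAIL whose death domain is truncated, was at 11.85, 16.8 and 23.95 TPM with penfluridol and at 16.05, 18.2 and 10.6 TPM in DMSO. These ranges overlapped over most of their length, and the log2 fold change was 0.20 (SE 0.29, adjusted p = 0.655). Its sign turned to -0.04 without penfluridol 3 and -0.02 without DMSO 3. The ligand gene TNFSF10 was at 0.850, 0.950 and 2.46 TPM with penfluridol and at 1.92, 3.86 and 1.63 TPM in DMSO (log2 fold change -0.53, SE 0.36, adjusted p = 0.328). Penfluridol 3 lay within the DMSO range, and the other penfluridol libraries lay below it. TNFSF10 lies on chromosome 3 from 172505508 to 172523507.

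Of the 6 genes of TRAIL receptors and their ligand, TNFRSF11B included, 5 were tested, of which 1 rose and 0 fell, where all genes gave 9.75% higher and 3.48% lower. Their median log2 fold change was 0.20. After correction for GC content and length 0 of the 5 were called, where 5.75% of all genes were higher and 7.07% lower.

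The 4 TRAIL receptor genes form a cluster on chromosome 8, with TNFRSF10B (GRCh38 coordinates 23020133 to 23069179), TNFRSF10C, TNFRSF10D (23135588 to 23164030) and TNFRSF10A (23190452 to 23225126) in that order. Gaps of 33.41, 18.15 and 26.42 kb separate neighbours, with no other protein-coding gene between them. Their sequences are related, so that reads may be shared among them. RHOBTB2, on the opposite strand, overlaps TNFRSF10B and averaged 8.23 TPM with penfluridol and 6.67 TPM in DMSO. The labels do not state whether strand was used in the counting, so reads of overlapping genes cannot be told apart.

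Since TPM is per length, the receptors of TRAIL can be set against each other within a library. The death-domain receptors TNFRSF10A and TNFRSF10B made up 80.9%, 78.2% and 77.8% of the TPM of the 4 TRAIL receptors in penfluridol 1, 2 and 3, against 69.6%, 65.5% and 71.2% in DMSO 1, 2 and 3. The share averaged 79.0% ± 1.69 with penfluridol and 68.8% ± 2.95 in DMSO (SD, n = 3 each), a difference of 10.2 percentage points. The 3 penfluridol shares lay above the 3 DMSO shares, which gives an exact two-sided permutation p of 0.1, the smallest that 3 against 3 allows. TNFRSF10B alone took 64.3% to 66.1% with penfluridol and 51.9% to 57.3% in DMSO, while TNFRSF10D took 17.6% to 21.4% with penfluridol and 26.3% to 31.7% in DMSO. TNFRSF10C, the other decoy, was at 0.410 to 1.02 TPM with penfluridol and 0.980 to 1.62 TPM in DMSO and did not pass the test (adjusted p = 0.325). The difference in the share was 6.20 percentage points after correction for GC content and length.

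**Figure D2:**
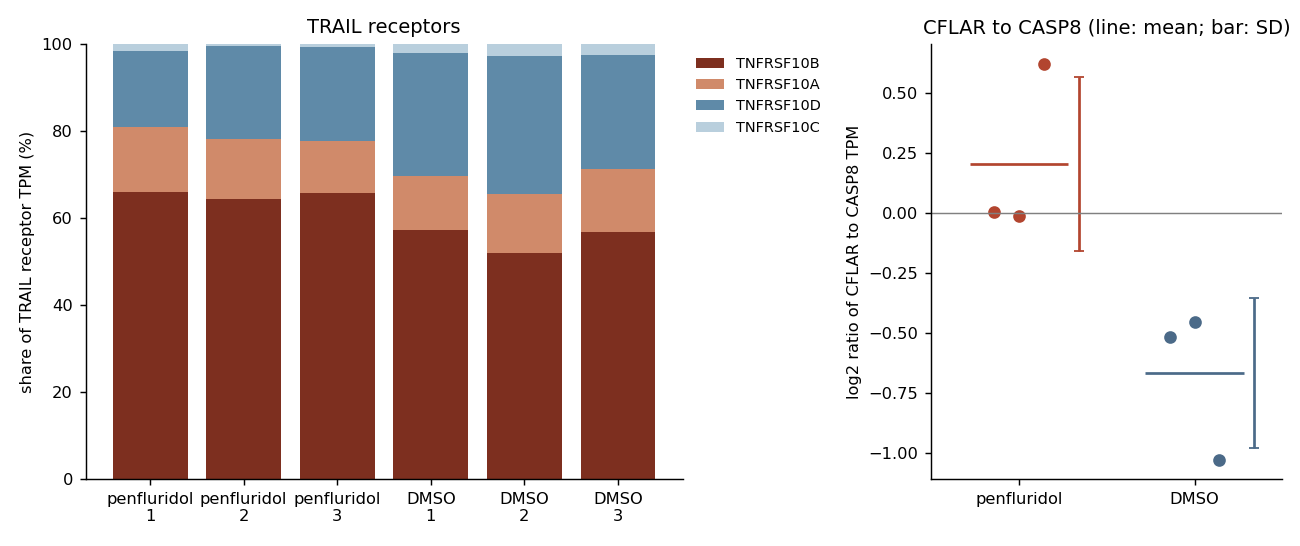
Left, the share in percent of each of 4 TRAIL receptors in their summed TPM, by library, with penfluridol libraries left of DMSO libraries; the death-domain receptors are in red tones and the decoys in blue tones. Right, the log2 ratio of CFLAR to CASP8 TPM by treatment, with points for libraries, a line at the mean and a bar of 1 SD; penfluridol values run from -0.010 to 0.62 and DMSO values from -1.03 to -0.45.

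FAS, the receptor of FAS ligand, was scarce. It was at 0.480, 0.630 and 1.62 TPM with penfluridol and at 2.44, 3.62 and 1.01 TPM in DMSO, so that penfluridol 3 exceeded DMSO 3 and the groups overlapped. Its log2 fold change was -0.78 (SE 0.38, adjusted p = 0.197). Without DMSO 3 it was -1.11 and passed the test (adjusted p = 0.0420), and after correction for GC content and length it was -0.24 (adjusted p = 0.582). FAS lies on chromosome 10 from 88990582 to 89015785. ACTA2 overlaps it on the opposite strand at a similar level, with means of 1.46 TPM with penfluridol and 1.80 TPM in DMSO. FASLG, the gene of its ligand, was listed at 0 in all 6 libraries.

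TNFRSF1A, the main receptor for TNF, rose. It was at 95.5, 95.3 and 116 TPM with penfluridol and at 67.0, 59.0 and 74.6 TPM in DMSO, and no penfluridol value reached down to the DMSO range. The means were 102 ± 12.1 TPM with penfluridol and 66.9 ± 7.80 TPM in DMSO (SD, n = 3 each; log2 fold change 0.61, SE 0.14, adjusted p = 0.0323). The call was lost after correction for GC content and length (log2 fold change 0.31, adjusted p = 0.156), without a filter on low TPM (0.0672) and with median-of-ratios scaling (0.0670). Among the 6 fits with 1 library left out, only that without DMSO 3 kept the call (0.0172), and the others had adjusted p-values up to 0.120. TNFRSF21, or DR6, a death receptor studied mostly in neurons and lymphocytes, was at 5.15, 6.34 and 9.63 TPM with penfluridol and at 6.84, 7.95 and 4.54 TPM in DMSO. Its groups overlapped and it did not pass the test (log2 fold change 0.10, SE 0.28, adjusted p = 0.822). TNFRSF1A lies on chromosome 12 from 6328757 to 6342114 and TNFRSF21 on chromosome 6 from 47231532 to 47309905.

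RefSeq promoter sequences (GRCh38.p14) were at hand for 6 of the 10 genes, and the stretches just before the first exon are shown for a receptor that rose, TNFRSF1A, for a receptor that did not pass the test, TNFRSF21, and for the ligand gene TNFSF10. They were searched on both strands for the motifs of AP-1 (TGANTCA), CREB (TGACGTCA), CHOP and ATF4 composite sites (TGATGNAA), NF-kB, interferon regulatory factors, the GC box (GGGCGG) and the TATA box (TATAAA), and matches are in capitals. TNFRSF1A is shown at chr12:6342115-6342326, TNFRSF21 at chr6:47309906-47310155 and TNFSF10 at chr3:172523508-172523680, each on the minus strand and written 5′ to 3′.
TNFRSF1A: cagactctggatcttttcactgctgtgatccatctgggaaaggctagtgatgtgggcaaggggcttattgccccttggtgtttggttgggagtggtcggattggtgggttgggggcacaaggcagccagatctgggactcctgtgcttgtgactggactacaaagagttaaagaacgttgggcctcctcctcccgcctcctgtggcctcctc
TNFRSF21: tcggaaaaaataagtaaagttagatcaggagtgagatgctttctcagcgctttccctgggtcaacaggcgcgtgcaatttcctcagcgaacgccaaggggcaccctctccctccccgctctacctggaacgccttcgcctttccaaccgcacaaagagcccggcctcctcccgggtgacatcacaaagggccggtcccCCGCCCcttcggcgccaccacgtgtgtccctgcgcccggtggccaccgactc
TNFSF10: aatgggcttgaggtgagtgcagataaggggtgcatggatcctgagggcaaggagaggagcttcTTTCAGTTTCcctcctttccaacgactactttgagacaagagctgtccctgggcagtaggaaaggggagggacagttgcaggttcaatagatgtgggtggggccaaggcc

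In the 250 bases before the RefSeq start site, TNFRSF1A and TNFRSF14 held none of the 7 motifs. The TNFRSF14 window, from 2556121 to 2556370, begins within an annotated exon and downstream of the gene's GENCODE start at 2555639. Bases before that start were thus not searched. TNFRSF21 held 1 GC box, a motif found in 42.6% of all windows of that length. TNFSF10 held 1 match to the interferon regulatory factor motif, found in 3.02% of all windows, and a TATA box, found in 10.7%, that lies in an annotated exon and is not shown. FAS and CFLAR, which have several windows each, held GC boxes and 1 AP-1 match each, a motif found in 6.57% of all windows. The AP-1 match of FAS lay at -242 to -236 from a start site and that of CFLAR at -160 to -154. None of the windows of these 6 genes held a match to the NF-kB motif or the CHOP and ATF4 motif that were searched, which 1.73% and 3.14% of all windows hold. A match, or its absence, describes these letters in these windows and not the binding of a factor.

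TNFRSF12A and TNFRSF14, which lack a death domain, had the largest increases of the 10 genes. TNFRSF12A, also called Fn14, is the receptor for TWEAK and is known to be induced by growth factors and injury. It was at 346, 297 and 253 TPM with penfluridol and at 124, 108 and 153 TPM in DMSO. Its lowest penfluridol library exceeded its highest DMSO library by a wide margin. The means were 299 ± 46.4 TPM with penfluridol and 128 ± 22.4 TPM in DMSO (SD, n = 3 each; log2 fold change 1.21, SE 0.17, adjusted p = 0.00708). After correction for GC content and length it was still called (log2 fold change 0.80, SE 0.08, adjusted p = 0.00191). The call was lost without penfluridol 2 (adjusted p = 0.0545) and held without any other single library. The gene is on chromosome 16 from 3018445 to 3022383.

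TNFRSF14, or HVEM, binds the ligands LIGHT and BTLA and is best known on lymphocytes and mucosal epithelia. It was at 6.69, 5.47 and 4.72 TPM with penfluridol and at 0.820, 0.390 and 0.700 TPM in DMSO. Each DMSO value was under 1 TPM and each penfluridol value above 4 TPM. The means were 5.63 ± 0.994 TPM with penfluridol and 0.637 ± 0.222 TPM in DMSO (SD, n = 3 each; log2 fold change 2.02, SE 0.23, adjusted p = 0.00377). The log2 fold change was 1.61 after correction for GC content and length (adjusted p = 0.00405) and 2.99 with a pseudocount of 0.1, since the pseudocount of 1 is larger than the DMSO values. The call held with any single library left out (adjusted p = 0.00709 to 0.0372). TNFRSF14 lies on chromosome 1 from 2555639 to 2565382, and its antisense gene TNFRSF14-AS1 averaged 0.260 TPM with penfluridol and 0.063 TPM in DMSO.

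**Figure D3:**
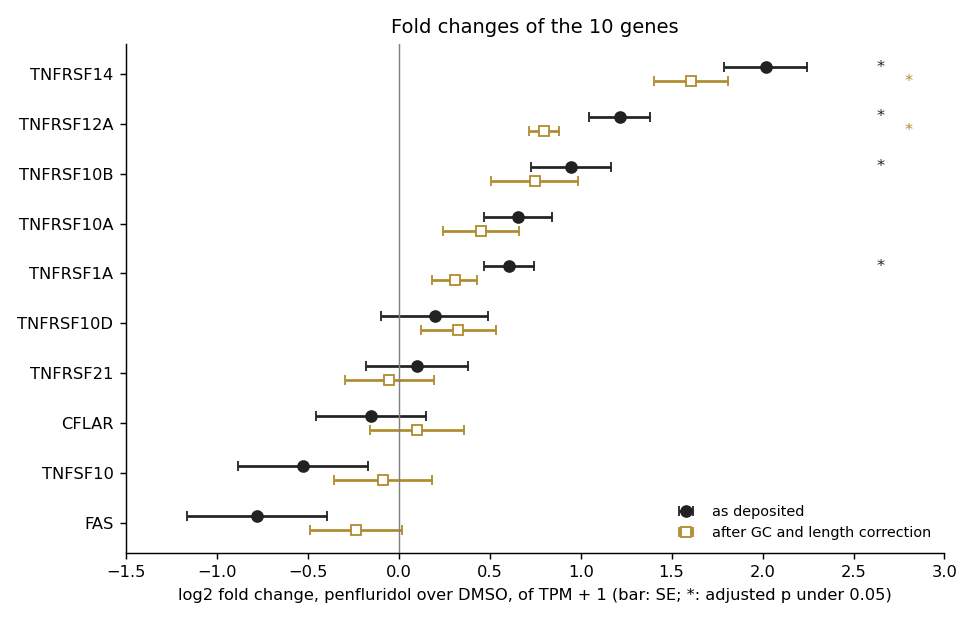
Log2 fold change of TPM + 1, penfluridol over DMSO, for each of the 10 genes, from the deposited values (filled circles) and after correction for GC content and length (open squares), with bars of 1 SE and stars for an adjusted p under 0.05. TNFRSF14 and TNFRSF12A carry both stars, and TNFRSF10B and TNFRSF1A carry the first only.

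Because lymphoid and myeloid cells express several of these receptors and ligands, markers of other cell types are given beside these results. The 7 immune markers summed to 5.86 to 6.68 TPM with penfluridol and 2.11 to 3.03 TPM in DMSO. CD68, a lysosomal glycoprotein abundant in macrophages, made most of that difference, at 4.39 to 4.8 TPM with penfluridol and 0.340 to 0.920 TPM in DMSO. PTPRC, the common leukocyte antigen, was at 0 to 0.0100 TPM with penfluridol and at 0 to 0.05 TPM in DMSO, and CD3E was listed at 0 in all 6 libraries. The 6 stromal markers summed to 1.81 to 4.50 TPM with penfluridol and 2.32 to 2.73 TPM in DMSO, with 3 of them listed at 0 throughout. The 4 endothelial markers summed to 0.200 to 0.400 TPM with penfluridol and 0.290 to 0.920 TPM in DMSO. The part of such cells in the differences above was not tested, beyond these levels. In bulk RNA of a cell line, more RNA per cell and a larger share of expressing cells cannot be told apart.

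CFLAR, the gene of the caspase-8 inhibitor FLIP, was at 3.60, 4.13 and 8.47 TPM with penfluridol and at 5.64, 6.56 and 5.12 TPM in DMSO. Penfluridol 3 lay above all DMSO values and the other penfluridol libraries below them, and the log2 fold change of -0.15 did not pass the test (SE 0.30, adjusted p = 0.742). Its sign turned to 0.05 without penfluridol 1 and to 0.10 after correction for GC content and length. CASP8, the initiator caspase that CFLAR blocks, fell. It was at 3.59, 4.16 and 5.50 TPM with penfluridol and at 8.06, 8.99 and 10.4 TPM in DMSO (log2 fold change -0.92, SE 0.21, adjusted p = 0.0309). That call was lost after correction for GC content and length (log2 fold change -0.48, adjusted p = 0.236) and held in 2 of the 6 fits with 1 library left out.

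The ratio of CFLAR to CASP8 was higher in each penfluridol library than in each DMSO library. Its log2 was 0.0040, -0.010 and 0.62 in penfluridol 1, 2 and 3, against -0.52, -0.45 and -1.03 in DMSO 1, 2 and 3. In linear terms the TPM of CFLAR was 0.993 to 1.54 times that of CASP8 with penfluridol and 0.491 to 0.730 times in DMSO. The log2 ratio averaged 0.21 ± 0.36 with penfluridol and -0.67 ± 0.31 in DMSO (SD, n = 3 each), a difference of 0.87. The groups did not overlap, with an exact two-sided permutation p of 0.1, the smallest possible here. After correction for GC content and length the difference was 0.66. Both genes lie on chromosome 2, with CFLAR from 201116104 to 201176687, and CASP10, which encodes another initiator caspase, stands between them.

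Counted over the whole receptor family, 15 of 29 receptors averaged at least 1 TPM. The 29 receptors summed to 764, 719 and 739 TPM in penfluridol 1, 2 and 3, against 425, 392 and 456 TPM in DMSO 1, 2 and 3. TNFRSF12A contributed 34.2% to 45.2% of that sum with penfluridol and 27.7% to 33.5% in DMSO. LTBR, the lymphotoxin beta receptor, contributed 23.2% to 24.8% with penfluridol and 26.9% to 28.8% in DMSO. TNFRSF1A contributed 12.5% to 15.7% with penfluridol and 15.1% to 16.3% in DMSO. By the Pfam annotation of the deposited table, 7 of the tested receptors have a death domain and 8 do not. The shares of all genes to set beside these classes are 9.75% higher, and 5.75% higher after correction for GC content and length. Of the 7 with a death domain 2 rose and 0 fell, TNFRSF10B and TNFRSF1A, and none was called after correction for GC content and length. Of the 8 without it 3 rose and 0 fell, TNFRSF12A, TNFRSF14 and LTBR, and 2 were called higher after the correction. The difference between these classes was not tested.

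Of 21 other receptors of the family 7 were tested, of which 1 rose and 0 fell, a share near the 9.75% called higher among all genes. LTBR, which signals to the non-canonical NF-kB pathway, was at 177, 174 and 183 TPM with penfluridol and at 122, 110 and 123 TPM in DMSO (log2 fold change 0.59, SE 0.10, adjusted p = 0.0127). It lies 32.9 kb from TNFRSF1A on chromosome 12 with no protein-coding gene between them. Its call was lost after correction for GC content and length (log2 fold change 0.21, adjusted p = 0.322) and held in 3 of the 6 fits with 1 library left out. SCNN1A, which overlaps it on the opposite strand, averaged 44.5 TPM with penfluridol and 68.3 TPM in DMSO. TNFRSF18, or GITR, had the highest mean among those not called, at 51.3, 44.4 and 40.02 TPM with penfluridol and 26.4, 27.96 and 43.1 TPM in DMSO (log2 fold change 0.49, adjusted p = 0.151). Without DMSO 3, its highest DMSO library, it passed the test (log2 fold change 0.71, adjusted p = 0.0185). The median log2 fold change of these 7 receptors was 0.07 and turned to -0.40 after the correction.

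Of 17 other ligands of the family 5 were tested, of which 2 rose and 0 fell, beside the 9.75% higher and 3.48% lower among all genes. TNF, the ligand of TNFRSF1A, was at 2.59, 2.24 and 2.03 TPM with penfluridol and at 0.260, 0.350 and 0.280 TPM in DMSO (log2 fold change 1.34, SE 0.22, adjusted p = 0.0109). Every DMSO value was far under the lowest penfluridol value, and TNF reached the mean of 1 TPM needed for the test through the penfluridol libraries alone. TNFSF9, the ligand of the costimulatory receptor 4-1BB, was at 15.8, 17.7 and 21.8 TPM with penfluridol and at 6.55, 4.81 and 6.14 TPM in DMSO (log2 fold change 1.51, SE 0.19, adjusted p = 0.00514). TNF and TNFSF9 were also called after correction for GC content and length (adjusted p = 0.0137 and 0.0104). TNFSF9 was called with any single library left out, while TNF was called in 4 of the 6 such fits. TNFSF13, or APRIL, had the highest mean among those not called. It was at 6.10 to 6.93 TPM with penfluridol and 6.86 to 10.4 TPM in DMSO, and was called lower after the correction (adjusted p = 0.0364). Its neighbour TNFSF12, the gene of the TNFRSF12A ligand TWEAK, was at 7.97, 9.84 and 5.82 TPM with penfluridol and 3.87, 1.2 and 4.25 TPM in DMSO and did not pass the test (adjusted p = 0.0804, or 0.0384 without DMSO 3). TNFSF12 and TNFSF13 overlap a read-through gene that averaged 14.5 TPM with penfluridol and 13.7 TPM in DMSO, so their values are uncertain.

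**Figure D4:**
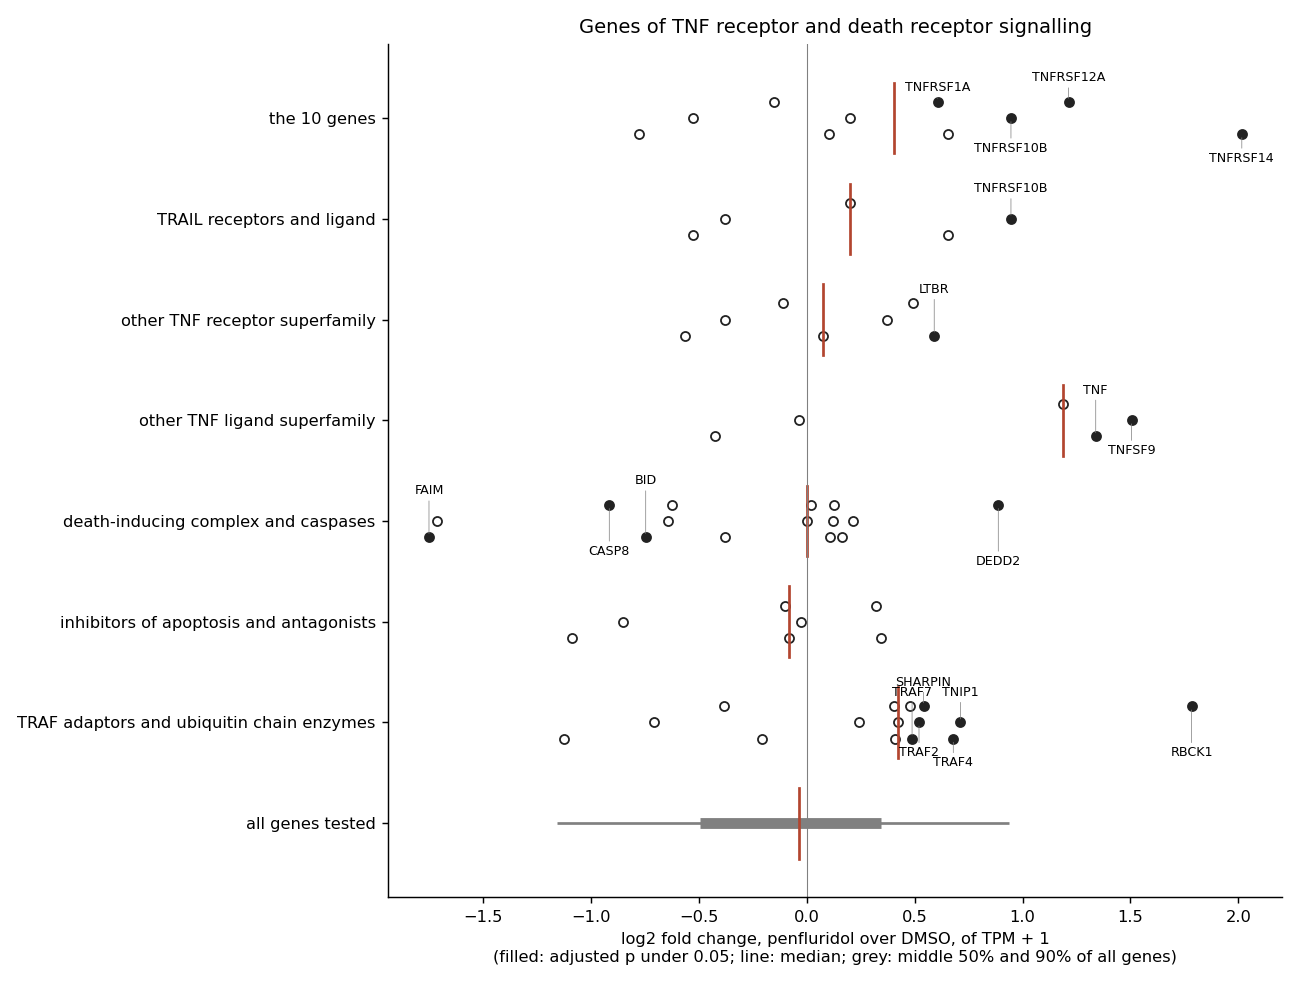
Log2 fold change of TPM + 1, penfluridol over DMSO, of each tested gene in 7 groups of genes, with filled points for an adjusted p under 0.05, named, and a vertical line at each median. The bottom row gives all genes tested, whose quartiles are -0.50 and 0.34 and whose outer 5% limits are -1.16 and 0.94.

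Of 18 genes of the death-inducing complex and the caspases 15 were tested, of which 1 rose and 3 fell, where 9.75% of all genes were called higher and 3.48% lower. After correction for GC content and length 2 were higher and 1 lower, with 5.75% higher and 7.07% lower among all genes. Those that fell were CASP8, given above, BID and FAIM. BID, which caspase-8 cleaves to pass the death signal to mitochondria, was at 75.01, 63.8 and 61.4 TPM with penfluridol and at 106, 93.7 and 142 TPM in DMSO (log2 fold change -0.75, SE 0.17, adjusted p = 0.0345). After correction for GC content and length it was -1.01 (adjusted p = 0.00485), so that BID was called in both. FAIM, an inhibitor of FAS-mediated death, was at 1.21, 1.65 and 3.93 TPM with penfluridol and at 8.81, 13.4 and 6.80 TPM in DMSO (log2 fold change -1.75, SE 0.37, adjusted p = 0.0250, or 0.0502 after the correction). DEDD2, a nuclear protein with a death effector domain, rose to 51.6 ± 6.09 TPM with penfluridol, against 27.4 ± 3.11 TPM in DMSO (SD, n = 3 each; log2 fold change 0.89, adjusted p = 0.0122). DAXX, a nuclear FAS-binding protein with the highest mean among those not called, was at 47.7 to 70.4 TPM with penfluridol and 47.2 to 61.4 TPM in DMSO (adjusted p = 0.657). The calls of BID and FAIM each held in 2 of the 6 fits with 1 library left out, and that of DEDD2 in 3.

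The adaptors FADD and TRADD were chosen for description after their values were seen. FADD averaged 52.3 ± 1.67 TPM with penfluridol and 51.7 ± 2.90 TPM in DMSO (SD, n = 3 each; log2 fold change 0.02, SE 0.11, adjusted p = 0.925). TRADD averaged 45.5 ± 4.25 TPM with penfluridol and 41.8 ± 5.73 TPM in DMSO (adjusted p = 0.557).

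None of 7 tested inhibitors of apoptosis and their antagonists, of 10 in the list, was called by limma. Among all genes tested 9.75% were called higher and 3.48% lower. At an unadjusted p under 0.05, 1 was higher and 1 lower, near the 18.9% higher and 14.2% lower among all genes. DIABLO, a mitochondrial antagonist of the inhibitors, had the highest mean. It was at 132, 151 and 146 TPM with penfluridol and 114, 109.5 and 114 TPM in DMSO (log2 fold change 0.34, SE 0.10, adjusted p = 0.0682, or 0.0473 without DMSO 3). After correction for GC content and length its log2 fold change was 0.34 and passed the test (adjusted p = 0.0412). In 2 of the 7 all penfluridol values lay above all DMSO values, as in 23.3% of genes tested. In 2, XIAP and BIRC6, they all lay below, as in 13.6%. XIAP averaged 1.54 TPM with penfluridol and 5.35 TPM in DMSO (adjusted p = 0.160, or 0.0436 without DMSO 3). BIRC6 averaged 0.45 TPM with penfluridol and 1.74 TPM in DMSO (adjusted p = 0.126). Neither was called after the correction.

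Of 22 TRAF adaptors and enzymes of ubiquitin chains 15 were tested, of which 6 rose and 0 fell, against 9.75% of all genes tested called higher and 3.48% lower. RBCK1, or HOIL-1, a subunit of the linear ubiquitin ligase that acts at the TNF receptor complex, was at 237, 236 and 244 TPM with penfluridol and at 71.9, 61.4 and 73.8 TPM in DMSO. The groups were far apart (log2 fold change 1.78, SE 0.11, adjusted p = 0.000616), and RBCK1 was called after correction for GC content and length (log2 fold change 1.37, adjusted p = 0.00161) and in all 6 fits that left out a single library. The other 5 were TNIP1, an inhibitor that binds ubiquitin chains (log2 fold change 0.71, adjusted p = 0.0110), TRAF4 (0.68, adjusted p = 0.0369), SHARPIN, another subunit of that ligase (0.54, adjusted p = 0.0372), whose opposite strand carries the abundant MAF1, TRAF2, which binds several of these receptors (0.52, adjusted p = 0.0487), and TRAF7 (0.49, adjusted p = 0.0434). None of these 5 was called after the correction, which left 1 of the 15 called, near the 5.75% called higher among all genes. With 1 library left out the call of TNIP1 held in 3 of 6 fits and that of SHARPIN in 2, while those of TRAF2, TRAF4 and TRAF7 held only without DMSO 3. TNIP2, with the highest mean among those not called, averaged 76.9 ± 6.16 TPM with penfluridol and 55.0 ± 5.59 TPM in DMSO (SD, n = 3 each; adjusted p = 0.05005, or 0.0220 without DMSO 3). The median GC content of the 15 was 59.3%, against 51.8% for all genes tested. Their median log2 fold change was 0.42, and 0.08 after the correction.

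Over all genes tested the fold change varied with the GC content of transcripts, and the 10 genes spread over that range. TNFRSF12A and TNFRSF14, at 64.2% and 63.6% GC, lie in the most GC-rich decile of the genes tested, where the median log2 fold change was 0.37 and 25% of genes were called higher. TNFRSF10A and TNFRSF10B, at 53.5% and 53.7%, lie in the sixth decile, with a median of 0.08 and 8.09% called higher. TNFRSF1A, at 56.6%, lies in the seventh, with a median of 0.21 and 15.3% called higher. FAS, at 42.0%, lies in the second decile, where the median log2 fold change was -0.60, and TNFSF10, at 44.0%, in the third, where it was -0.43. TNFRSF21 lies in the fifth decile, with a median of -0.07, and TNFRSF10D and CFLAR in the fourth, with a median of -0.23. The log2 fold change was above the median of its decile for 8 of the 10 genes and below it for FAS and TNFSF10. Since the trend with GC content differed between the treatments, the part of GC content in each difference cannot be told apart from that of penfluridol.

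**Figure D5:**
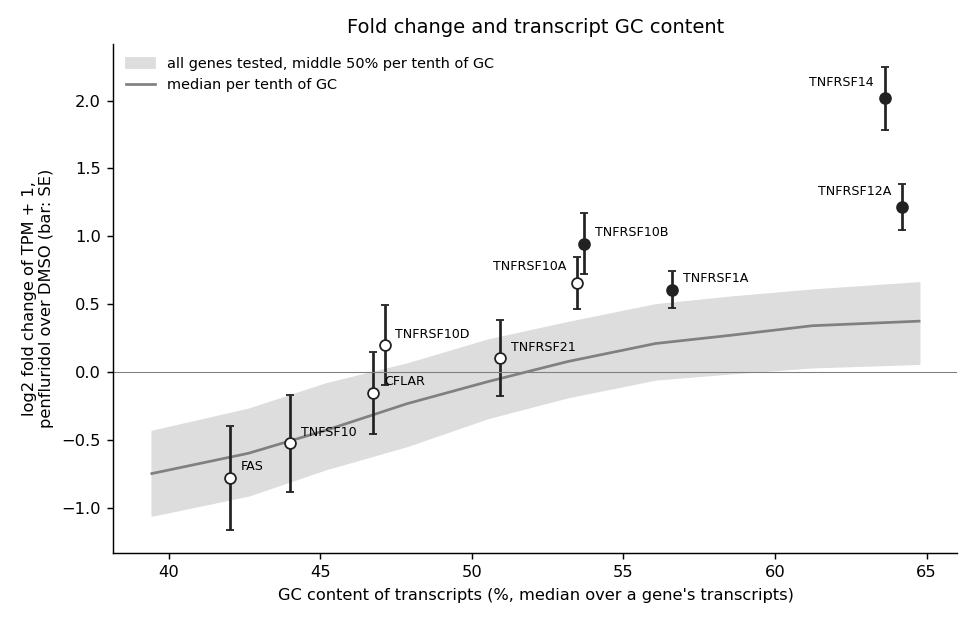
Log2 fold change of TPM + 1, penfluridol over DMSO, of the 10 genes against the GC content of their transcripts in percent, with bars of 1 SE and filled points for an adjusted p under 0.05. The grey line and band give the median and the middle 50% of all genes tested in each decile of GC content, with medians from -0.75 to 0.37.

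Within a treatment the libraries also took a common order. Penfluridol 3 was the highest penfluridol library for 8 of the 10 genes and the lowest for the other 2, TNFRSF12A and TNFRSF14. DMSO 3 was the lowest DMSO library for 7 of the 10 and the highest for TNFRSF1A and TNFRSF12A. The median-of-ratios scaling factor, a library-wide scale of TPM over many genes, took a like order. It was 0.85, 0.96 and 1.11 in penfluridol 1, 2 and 3, and 1.08, 1.18 and 0.87 in DMSO 1, 2 and 3. The order is thus not particular to these 10 genes, and the share of all genes that follow it was not counted. The 3 genes whose log2(TPM + 1) followed that of TNFRSF10B most closely over the 6 libraries, among 7435 genes that averaged 5 TPM or more, were the kinase gene MAP3K3 (Pearson's r = 0.997), DSTNP2 (0.996) and AKNA (0.996). For TNFRSF12A they were SDHAF1 (0.9996), MYDGF (0.9994) and ANKRD13D (0.9994), and for CFLAR they were FGF18 (0.986), H3-3B (0.981) and SWI5 (0.980). These correlations describe 6 libraries that share the 2 treatments and the trend with GC content.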

How the data were processed

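Gene expression was given as TPM by the authors, in a deposited table of 60670 genes with 1 column per library. Column sums were 994160 to 997210. Per the submitters' processing notes, fastp and RSEM were used with GRCh38.p13; the labels name no role or version of the tools and no use of strand. TPM keeps no read counts, so no count test was run and depth is unknown.

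The 10 genes and all gene lists were chosen with earlier results of these data known. In R 4.3.3, limma 3.58.1 with a trended prior was fitted to log2(TPM + 1) in the 12201 genes that averaged 1 TPM or more, penfluridol against DMSO with 3 libraries each, and p-values were adjusted by Benjamini-Hochberg over all of them; an adjusted p under 0.05 is a call. The procedure was tested on simulated data, drawn independently for each gene and without a trend with GC content. That test does not cover the trend with GC content seen in these libraries. The correction for GC content and length subtracted, in each library, natural splines with 4 degrees of freedom, using GENCODE 29 transcripts, which covered 12112 of the tested genes. Gene positions are from GENCODE 29 (GRCh38). Shares and ratios within libraries were compared by exact two-sided permutation. Of each list, the text names the called genes and the most abundant gene not called; for TNFRSF10B, TNFRSF12A and CFLAR it names the 3 best correlated genes. Genes outside that rule, such as FADD, TRADD, TNFSF12, FASLG, TNFRSF10C, XIAP and BIRC6, were chosen after their values were seen. Alternatives were another pseudocount, other filters, median-of-ratios scaling, the correction for GC content and length, a replicate block and leaving out each library.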

Additional observations from a re-analysis of the deposited data

How the results depend on the processing

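The count of the 10 genes called higher was 4, and it was 2 without a filter on low TPM and 2 after the GC and length correction. With 1 library left out it was 1 to 4, and 0 to 1 were called lower; with the correction as well, an alternative chosen after seeing the data, it was 2 to 2. Over all genes, 1190 were higher and 425 lower. These counts were 701 and 863 after the correction, 194 lower without the filter, 197 to 1692 higher and 40 to 2261 lower with 1 library left out, and 198, 262, 375, 419, 445 and 713 higher and 228 to 1578 lower, 269 and 728 among them, with both. The 2261 lower calls came without DMSO 3, and 1578 with the correction as well. With at least 5 TPM in at least 3 libraries, 1298 of 7407 genes were higher and 451 lower. With median-of-ratios scaling 1101 of 12201 genes were higher and 621 lower. Without the filter on low TPM 802 of 26597 genes were higher.

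The TRAIL list had 1 call; it had 2 with at least 5 TPM in at least 3 libraries, 2 with median-of-ratios scaling, 0 without the filter, 0 after the correction and 0 to 1 with 1 library left out (0 to 0 with the correction). The other receptors had 1 call, 0 with median-of-ratios scaling, 0 after the correction and 0 to 2 with 1 library left out (0 to 1 with the correction). The other ligands had 2 calls, 1 at the 5 TPM filter and 1 to 3 with 1 library left out (0 to 3 with the correction). The death complex list had 4, 1 without the filter and 0 to 7 with 1 library left out (1 to 4 with the correction). The apoptosis inhibitors had 0, 1 at the 5 TPM filter, 1 after the correction and 0 to 3 with 1 library left out (0 to 1 with the correction). The TRAF list had 6, 2 without the filter, 2 with median-of-ratios scaling, 1 after the correction and 1 to 8 with 1 library left out (1 to 2 with the correction).

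The labels do not say whether libraries of the same number were paired. Deviations from the treatment mean correlated at -0.0081, -0.0061 and -0.35 between same-numbered libraries. Between differently numbered libraries these correlations ran from -0.33 to 0.32. With 3 libraries per treatment and trends with GC content, they cannot decide whether the libraries were paired. With the replicate block, 0 of the 10 genes were called, with 62 genes higher and 12 lower over all genes; the TRAIL, receptor, ligand and death complex lists had 0 calls and the TRAF list 1. With the block and the GC and length correction, 2 of the 10 genes were called higher, with 154 genes higher and 182 lower; the death complex and TRAF lists had 1 call each, and the TRAIL, receptor and ligand lists 0.

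Signs turned only in genes that did not pass the test. CFLAR was 0.10 and TNFRSF21 -0.052 after the correction, with and without the block. With 1 library left out, TNFRSF10D ranged from -0.042 to 0.44, TNFRSF21 from -0.12 to 0.28 and CFLAR from -0.47 to 0.047. With the correction as well, where the sign turned, TNFRSF21 was -0.23, -0.22 and -0.0060, TNFSF10 was 0.031, 0.031 and 0.049, and CFLAR was 0.076, 0.11, 0.12, 0.22 and 0.26. The difference in the share of death-domain TRAIL receptors was 8.53 to 11.4 percentage points and that in the log2 ratio of CFLAR to CASP8 0.66 to 0.98 with 1 library left out. The cause of these changes was not tested.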
